A study of Mus musculus with 2 samples.

Results

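Solute carrier (SLC) genes were followed across the cell classes of the stria vascularis (SV) of adult mice, the epithelium with its own capillaries that lines the lateral wall of the cochlear duct. The members were all genes whose symbol starts with Slc and a digit and that held at least 50 unique molecular identifiers (UMIs, the molecules counted) over both libraries, with Slc12a2 and Slc40a1 left out, which gave 154 of 376 such genes listed. Of all 32285 genes listed, 9642 held as many UMIs. Just inside the limit lay Slc25a14 with 51 UMIs and Slc10a3, Slc6a9 and Slc7a6 with 53 each, and just outside lay Slc36a1 and Slc51a with 47 each. The symbols of 4 members name no carrier (the scaffold proteins Slc9a3r1 and Slc9a3r2, and Slc7a6os and Slc4a1ap). Because the minimum was on UMIs summed over both libraries, a gene of the deeply sampled Tie2-GFP ECs passed it more readily than one of mural cells.

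The study profiled single cells of the SV from 2 fluorescent reporter lines, with 1 pooled library of 10 mice (20 cochleae) aged 1 to 3 months for each line. Tie2-GFP mice carry GFP under the promoter of Tek (Tie2), an endothelial receptor gene, and NG2-DsRed mice carry DsRed under the promoter of Cspg4 (NG2), which is active in pericytes and other mural cells. No treatment is named for either line, the tissue of both was digested with collagenase and papain, and cells were captured on the 10x Chromium 3′ platform after sorting by fluorescence when needed. The Tie2-GFP library held 633 barcodes and 5432289 UMIs, the NG2-DsRed library 201 barcodes and 1232599 UMIs, and 0 barcodes were shared. GEO labels the former as endothelial cells and the latter as pericytes, but each also held other cells.

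SLC proteins are membrane carriers that move sugars, amino acids, ions, metals, vitamins and lipids, at the cell surface and in organelles such as mitochondria, Golgi, lysosomes and melanosomes. In capillaries with tight junctions, carriers of endothelial cells (ECs) give nutrients their route from blood to tissue. The SV holds such capillaries, the pericytes that cover them, and melanocyte-like intermediate cells that help to set the endocochlear potential.

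Barcodes were placed in classes by marker genes that are not SLC genes. Endothelial barcodes had a UMI in at least 4 of Pecam1, Cdh5, Cldn5, Flt1, Egfl7 and Ramp2, mural barcodes in at least 3 of Pdgfrb, Rgs5, Vtn and Notch3 with at most 1 endothelial gene, and intermediate barcodes in all of Dct, Tyr and Kcnj10. The Tie2-GFP library gave 379 endothelial, 4 mural and 87 intermediate barcodes, and the NG2-DsRed library 58, 97 and 23. The 4 mural barcodes of the Tie2-GFP library held 12355 UMIs in all and entered no comparison. The 163 and 21 barcodes of no class, and 2 barcodes of the NG2-DsRed library that met both the endothelial and another rule, were set aside. Median depth was 7431 UMIs in endothelial and 15955 in intermediate barcodes of the Tie2-GFP library, and 9146, 3027 and 10383 UMIs in endothelial, mural and intermediate barcodes of the NG2-DsRed library.

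Markers outside the rules were highest in the classes they name, but each class also held RNA of other cells. Of 8 further endothelial markers, 8 had UMIs in the endothelial barcodes of each library, and of 9 further mural markers 9 had UMIs in the mural barcodes. Of 8 further intermediate markers 7 had UMIs in intermediate barcodes, with Mlana at 1069 CPM in the Tie2-GFP library. The pigment gene Tyrp1 was at 0, and Pmel, another, held 1 UMI in intermediate barcodes of each library (0.761 CPM in the Tie2-GFP library, against 1.16 CPM in endothelial ones). In endothelial barcodes of the NG2-DsRed library the 9 mural markers summed to 1815 counts per 1000000 UMIs (CPM), against 211 CPM in endothelial barcodes of the Tie2-GFP library and 11726 CPM in mural barcodes. At least 3 of the 4 mural rule genes were found in 32 of those 58 barcodes and in 26 of the 379. In mural barcodes the 8 endothelial markers summed to 641 CPM, of which Esam gave 469 and Emcn 126 CPM, against 3332 CPM in endothelial barcodes of that library, and 4 basal cell markers summed to 788 CPM, of which Nr2f2 gave 698. Markers of marginal cells summed to 250.4 CPM in intermediate barcodes of the Tie2-GFP library, 25.3 CPM in endothelial ones and 0 in intermediate barcodes of the NG2-DsRed library. Markers of red blood cells summed to 2912 CPM in endothelial barcodes of the Tie2-GFP library and 22.8 CPM in those of the NG2-DsRed library, and Schwann cell markers to 1217 and 1237 CPM in intermediate barcodes. The median mitochondrial share was 9.31% in intermediate barcodes of the Tie2-GFP library and 1.82% in endothelial ones, and 79 of the 87 exceeded the study's limit of 5%. The part of any of these in the results below was not tested, and the closing section gives the class-led counts under stricter classes and under the study's limits.

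Levels are CPM, a gene's UMIs summed over the barcodes of a class and scaled to 1000000. A 3′ library counts about 1 tag per molecule, so CPM of different genes were not divided by length. With 1 library per line there is no replicate and no test. The 95% intervals (exact Poisson for CPM, exact conditional binomial for log2 ratios, exact Clopper-Pearson for shares of barcodes) cover counting error only. A gene was counted as higher in a class when its CPM was at least 4-fold higher, with at least 20 UMIs over both classes. A count of 0 allows up to 0.874 CPM in endothelial and 2.28 in intermediate barcodes of the Tie2-GFP library, and up to 5.26, 9.03 and 12.2 CPM in endothelial, mural and intermediate barcodes of the NG2-DsRed library (3 counts).

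The stretches below, of up to 250 bases, lie before the transcription start of 1 gene that led each class, and are shown because these genes were the farthest above the other classes among those with an entry in the RefSeq promoter set (GRCm38.p6, 118 of 154 members matched). Capitals mark CAGGAA, which holds the GGAA core read by ETS factors of endothelium, GGGCGG (the GC box), and CATGTG, an E-box form read by the pigment cell factor MITF, each on either strand. Both listed starts of Slc24a2 are shown, the latter of which lies inside the annotated gene, and the former of the 2 listed starts of Slc39a8.
Slc39a8, chr3:135825029-135825278, plus strand: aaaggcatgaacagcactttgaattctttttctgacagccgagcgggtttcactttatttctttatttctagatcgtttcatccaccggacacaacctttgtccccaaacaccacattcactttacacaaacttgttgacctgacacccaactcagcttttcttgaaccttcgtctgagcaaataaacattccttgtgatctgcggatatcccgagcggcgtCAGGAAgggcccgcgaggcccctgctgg
Slc38a11, chr2:65364035-65364276, minus strand: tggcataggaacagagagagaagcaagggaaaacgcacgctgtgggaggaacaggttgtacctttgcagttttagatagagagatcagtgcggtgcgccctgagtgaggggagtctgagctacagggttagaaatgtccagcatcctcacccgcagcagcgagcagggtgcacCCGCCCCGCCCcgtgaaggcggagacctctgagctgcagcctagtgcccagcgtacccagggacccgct
Slc24a2, chr4:87230541-87230790, minus strand: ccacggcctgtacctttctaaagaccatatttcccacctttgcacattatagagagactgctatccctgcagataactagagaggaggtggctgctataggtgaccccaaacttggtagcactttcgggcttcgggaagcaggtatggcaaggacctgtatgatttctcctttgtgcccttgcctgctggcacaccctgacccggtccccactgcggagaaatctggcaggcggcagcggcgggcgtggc
Slc24a2, chr4:87227964-87228213, minus strand: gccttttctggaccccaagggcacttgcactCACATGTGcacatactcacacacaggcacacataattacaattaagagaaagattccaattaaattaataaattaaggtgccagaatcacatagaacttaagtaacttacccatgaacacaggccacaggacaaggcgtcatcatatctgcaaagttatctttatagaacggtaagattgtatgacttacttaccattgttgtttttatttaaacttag
In up to 250 bases before the start, CAGGAA was found in 25.7% of all 32851 promoters, GGGCGG in 32.7% and CATGTG in 12.3%. Counted per gene at any of its starts, the shares were 28.3%, 35.4% and 13.8% of 27025 genes. CAGGAA was found at 4 of 8 endothelial-led genes with an entry (Slc39a8, Slc3a2, Slc7a1 and Slc9a3r2), at 1 of 3 mural-led genes (Slc12a4) and at 0 of 5 intermediate-led genes. CATGTG was found at 0, 0 and 1 of them, the last being Slc24a2. None of the motifs lies at its former start, and copies of CATGTG on opposite strands overlap at the latter, whose T-rich end before ag also has the form of an intron end. GGGCGG was found at 6 of 8, 3 of 3 and 3 of 5. The motifs were chosen with the results known, and a match describes letters, not binding.

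SLC RNA made up a similar share of all UMIs in endothelial and intermediate cells and a lower one in mural cells. The highest gene differed between the classes, but the genes next to it overlapped, mostly between intermediate and mural cells. The members held 1.08% of the UMIs of endothelial and 0.932% of those of intermediate barcodes in the Tie2-GFP library, and 0.910%, 0.653% and 1.01% in endothelial, mural and intermediate barcodes of the NG2-DsRed library. In ECs of the Tie2-GFP library the highest were Slc2a1 (GLUT1, which carries glucose) at 1975 CPM, Slc38a2 (sodium-coupled neutral amino acids) at 1244, Slc3a2 (the heavy chain of amino acid exchangers) at 1003, Slc6a6 (taurine) at 597 and Slc7a1 (arginine and lysine) at 499.7. In intermediate cells of the same library they were Slc45a2 (a carrier of the melanosome) at 1493 CPM, the mitochondrial ADP/ATP carrier Slc25a4 at 1259, the mitochondrial phosphate carrier Slc25a3 at 618, Slc38a2 at 527 and the ADP/ATP carrier Slc25a5 at 483. In mural cells they were Slc25a4 at 713 CPM, Slc38a2 at 505, Slc25a3 at 469, Slc25a5 at 340.0 and Slc38a11 (a member of the neutral amino acid family) at 334.

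Among members, each vascular and pigment class had its own leading carriers. A gene led a class when it was at least 4-fold above both other classes, judged within libraries. ECs were led by 10 of the 59 members with enough UMIs (16.9%, against 4.72% of all genes), mural cells by 3 of 42 (7.14%, against 3.96%) and intermediate cells by 7 of 46 (15.2%, against 4.79%). These 20 genes are plotted with every class and library. The other 134 members were led by no class or held too few UMIs to be placed.

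**Figure D1:**
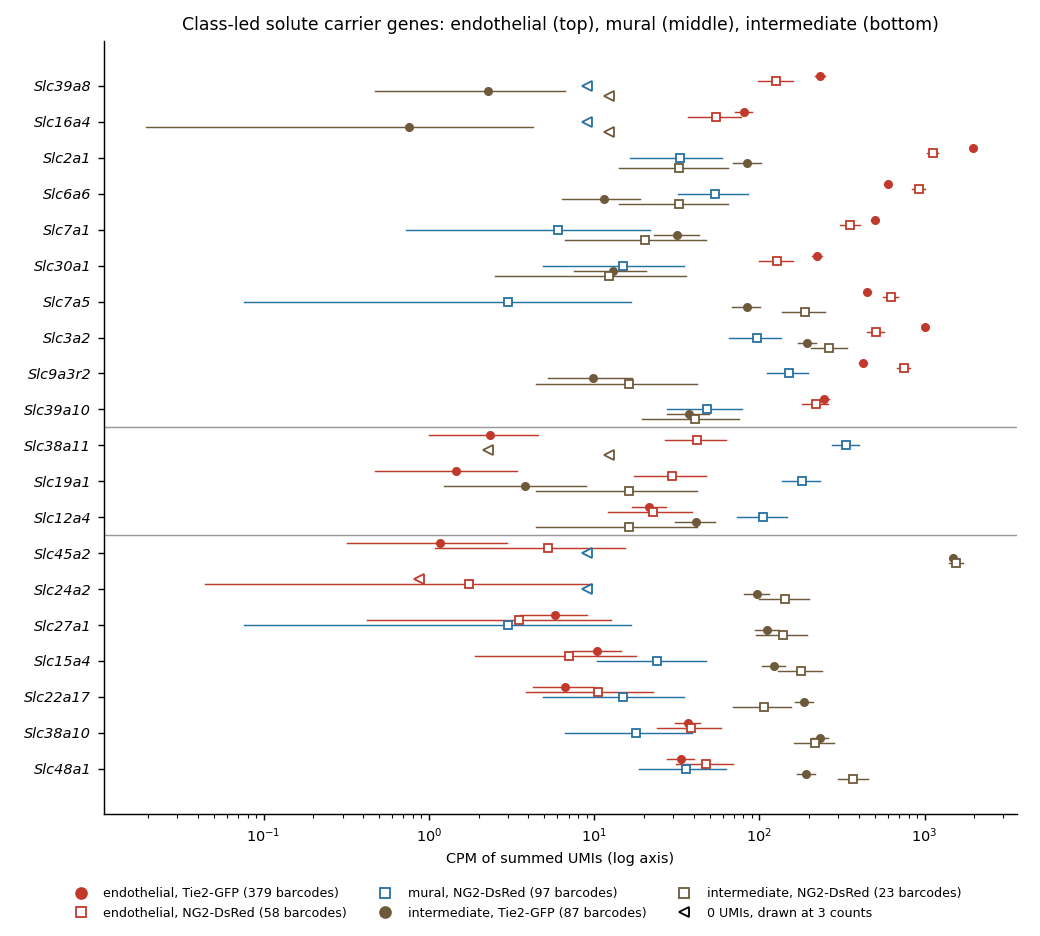
CPM (log axis) of the 20 class-led members in the endothelial, mural and intermediate barcodes of each library, with 95% Poisson intervals for counting error, and open triangles at 3 counts where a class held 0 UMIs. In every row the leading class lies to the right of the other classes, for example Slc45a2 at 1493 and 1551 CPM in intermediate and 1.16 and 5.26 CPM in endothelial barcodes, with its triangle for mural barcodes at 9.03 CPM.

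The glucose carrier was the most abundant SLC transcript of ECs among the members. Slc2a1 (chr4:119108711-119137983, plus strand, GRCm38) stood at 1975 CPM (95% interval 1928 to 2022) in endothelial and 84.5 CPM (69.5 to 102) in intermediate barcodes of the Tie2-GFP library. In the NG2-DsRed library it stood at 1123 CPM (1038 to 1213) in endothelial, 33.1 CPM (16.5 to 59.2) in mural and 32.7 CPM (14.1 to 64.4) in intermediate barcodes. Both endothelial values lay far above the other 3, whose intervals reached no higher than 102 CPM. The log2 ratio of endothelial over intermediate was 4.54 (4.28 to 4.83), and that of mural over endothelial -5.02 (-6.09 to -4.24). After each barcode was thinned at random to 3506 UMIs, Slc2a1 was found in 97.6% (95.4 to 99.0) of 338 endothelial and 21.0% (12.7 to 31.5) of 81 intermediate barcodes of the Tie2-GFP library, with 41 and 6 shallower ones left out, and unthinned in 99.2% and 59.8%. Among the 6 other sugar carriers, Slc50a1 reached 135 CPM in ECs and 45.7 in intermediate cells, and Slc5a3, which carries myo-inositol, 87.1 and 76.1, short of 4-fold in each. The annotated Slc5a3 overlaps Mrps6 on the same strand, and the part of Mrps6 in its counts was not tested.

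Amino acid carriers had the highest summed level of the solute groups in ECs. Families were assigned whole, so this group also holds Slc6a8, which carries creatine, and Slc43a3, which carries purine bases. The 20 members summed to 4071 CPM in endothelial and 1411 CPM in intermediate barcodes of the Tie2-GFP library, and to 3053, 1192 and 1653 CPM in endothelial, mural and intermediate barcodes of the NG2-DsRed library. Of the 19 with enough UMIs, 9 were at least 4-fold higher in endothelial and 3 in intermediate barcodes of the Tie2-GFP library, with a median log2 ratio of 1.24 over the group and 0.16 over all 9468 genes tested. Over all members the endothelial side held 27 of 145 (18.6%, against 15.1% of all genes) and the intermediate side 22 of 145 (15.2%, against 8.09%), with a median log2 ratio of -0.37.

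The exchanger of large neutral amino acids, a pair of heavy and light chain, was endothelial-led in both chains. Slc7a5, the light chain LAT1 for large neutral amino acids, stood at 449.9 CPM in endothelial and 83.7 in intermediate barcodes of the Tie2-GFP library, and at 624, 3.01 and 188 CPM in endothelial, mural and intermediate barcodes of the NG2-DsRed library. Mural barcodes held 1 UMI of it against 356 in endothelial ones, a log2 ratio of -7.11 (-13.00 to -5.21). Slc3a2 stood at 1003 and 195 CPM in the Tie2-GFP library, and at 508, 96.3 and 265 CPM in the NG2-DsRed library. Mural cells thus held the heavy chain with hardly any LAT1. Intermediate cells held both, with log2 ratios of endothelial over intermediate of 2.42 (2.15 to 2.72) and 2.36 (2.18 to 2.55) in the Tie2-GFP library but 1.72 (1.29 to 2.21) and 0.93 (0.54 to 1.35) in the NG2-DsRed library, both short of 4-fold there.

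Carriers of cationic amino acids and their exchange partners followed the same side. Slc7a1 stood at 499.7 and 32.0 CPM in endothelial and intermediate barcodes of the Tie2-GFP library and at 354, 6.02 and 20.4 CPM in endothelial, mural and intermediate barcodes of the NG2-DsRed library, with a log2 ratio of mural over endothelial of -5.56 (-8.93 to -4.01). The light chains Slc7a7 and Slc7a6, which exchange cationic for neutral amino acids, stood at 32.0 and 12.2 CPM in ECs of the Tie2-GFP library, against 1 and 0 UMIs in intermediate barcodes, which puts Slc7a6 at least 5.36-fold higher in ECs. The log2 ratio of Slc7a7 was 4.82 (2.89 to 10.71). All 4 Slc7 members were thus past 4-fold in that library. Slc43a3, which carries purine bases, stood at 25.0 against 1.52 CPM there, a log2 ratio of 3.73 (2.14 to 7.11). For Slc1a5, a glutamine carrier, it was 3.63 (1.65 to 9.53), and for Slc38a5, which carries glutamine and histidine, 5.13 (3.21 to 11.03).

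The taurine carrier was far higher in ECs than in intermediate and mural cells, and was uneven within ECs. Slc6a6 stood at 597 CPM (572 to 624) in endothelial and 11.4 CPM (6.39 to 18.8) in intermediate barcodes of the Tie2-GFP library, and at 919.7 CPM (843 to 1002), 54.2 CPM (32.1 to 85.6) and 32.7 CPM (14.1 to 64.4) in endothelial, mural and intermediate barcodes of the NG2-DsRed library. It was higher in ECs of the NG2-DsRed than of the Tie2-GFP library, whereas Slc2a1 was lower there. The log2 ratio of endothelial over intermediate was 5.66 (4.98 to 6.55) in the Tie2-GFP library and 4.73 (3.83 to 6.04) in the NG2-DsRed library. In the former it was 4.15 with the study's limits on barcodes, which keep 6 intermediate barcodes. The log2 ratio of mural over endothelial was -4.05 (-4.85 to -3.41). Thinned shares of endothelial barcodes were 32.8% (27.9 to 38.1) at 3506 UMIs in the Tie2-GFP and 69.0% (55.5 to 80.5) at 1935 UMIs in the NG2-DsRed library, against 6.17% (2.03 to 13.8) and 9.09% (1.12 to 29.2) of intermediate barcodes, with unthinned shares of 38.5%, 93.1%, 16.1% and 26.1%. The related creatine carrier Slc6a8 lay on the other side, with 17.2 CPM in endothelial and 59.4 in intermediate barcodes of the Tie2-GFP library. Its log2 ratio of endothelial over intermediate was -1.79 there, short of 4-fold, and -2.59 in the NG2-DsRed library, past 4-fold.

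Slc38a2 was shared by all classes. It stood at 1244 CPM in endothelial and 527 in intermediate barcodes of the Tie2-GFP library, and at 434, 505 and 474 CPM in endothelial, mural and intermediate barcodes of the NG2-DsRed library. Its log2 ratio of endothelial over intermediate was 1.24 (1.12 to 1.36) in the former and -0.13 (-0.45 to 0.21) in the latter, so the excess in ECs was seen in 1 library. Its relative Slc38a1, also a neutral amino acid carrier, stood at 77.6 CPM in intermediate and 2.62 CPM in endothelial barcodes of the Tie2-GFP library, and at 49.0, 3.50 and 12.0 CPM in intermediate, endothelial and mural barcodes of the NG2-DsRed library. Of the 7 Slc38 members, Slc38a5 was highest in ECs among the classes, Slc38a1 and Slc38a10 in intermediate cells and Slc38a11 in mural cells. These were differences of level, and ECs of the Tie2-GFP library held 37.0 CPM of Slc38a10 beside 39.9 of Slc38a5. Barcodes of no class of that library with at least 3 markers of marginal cells (closing section) held 94.2 CPM of Slc38a1, above the intermediate ones.

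Zinc carriers were the other group with several endothelial-led genes. Of 15 Slc30 and Slc39 members, 8 had enough UMIs to be set against mural cells, and 3 of these led in ECs, where 4.72% of all genes tested did. None led in another class. Slc39a8 (ZIP8, uptake of zinc and manganese) stood at 232 CPM (216 to 249) in endothelial barcodes of the Tie2-GFP library, with 3 UMIs in intermediate barcodes (log2 ratio 6.45, 5.12 to 8.95), and at 126 CPM (98.7 to 159) in endothelial barcodes of the NG2-DsRed library, with 0 UMIs in mural and intermediate barcodes. That is at least 14.0-fold higher in endothelial than in mural barcodes. Slc30a1 (ZnT1, zinc export) stood at 224 and 12.9 CPM in the Tie2-GFP library, and at 128, 15.0 and 12.2 CPM in endothelial, mural and intermediate barcodes of the NG2-DsRed library. Slc39a10 (ZIP10, zinc uptake) stood at 248 and 37.3 CPM, and at 219, 48.1 and 40.8 CPM. ECs thus held more RNA for both uptake and export than the other classes. With stricter classes, which kept at most 16 ECs of the NG2-DsRed library, Slc39a8 fell under 20 UMIs there, and Slc39a10 fell short of 4-fold with a log2 ratio of mural over endothelial of -1.88. Slc39a14, which takes up zinc, iron and manganese, was the 1 member of the 15 at least 4-fold higher in intermediate barcodes of the Tie2-GFP library, at 51.7 CPM against 3.49. Slc39a1 and Slc39a7, carriers of zinc into the cytosol, stayed within 2-fold between classes of a library, at 77.7 and 60.9 CPM (Slc39a1) and 42.8 and 78.4 CPM (Slc39a7) in endothelial and intermediate barcodes of the Tie2-GFP library.

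Monocarboxylate carriers (Slc16) divided between classes member by member. Slc16a4 (MCT5), whose substrate is little known, stood at 80.4 CPM in endothelial barcodes of the Tie2-GFP library with 1 UMI in intermediate ones (log2 ratio 6.14, 4.23 to 12.03), and at 54.3 CPM in endothelial barcodes of the NG2-DsRed library with 0 UMIs in mural and intermediate ones. Like Slc39a8 it fell under 20 UMIs with stricter classes. Slc16a9 and Slc16a13 were lower but also endothelial in the Tie2-GFP library, at 16.6 and 16.9 CPM against 0 and 1 UMIs. Slc16a6, Slc16a3 (MCT4, lactate) and Slc16a10 (TAT1, aromatic amino acids) were on the intermediate side, at 142, 58.6 and 43.4 CPM against 7.28, 12.2 and 0.874 CPM in ECs. In the NG2-DsRed library these 3 stood at 57.2, 20.4 and 49.0 CPM in intermediate barcodes and at 5.26, 1.75 and 0 CPM in endothelial ones.

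The vitamin and nucleoside carriers (8 members) summed to 134 CPM in endothelial and 142 CPM in intermediate barcodes of the Tie2-GFP library. In the NG2-DsRed library they summed to 180 CPM in endothelial, 355 CPM in mural and 163 CPM in intermediate barcodes, highest in mural ones. Among them, 2 of low abundance were found in ECs and not in intermediate cells. Slc52a3 (riboflavin) and Slc19a3 (thiamine) stood at 23.9 and 16.3 CPM in endothelial barcodes of the Tie2-GFP library, with 0 UMIs in intermediate ones, which makes them at least 10.5-fold and 7.14-fold higher. In the NG2-DsRed library their 6 and 11 UMIs were also all in endothelial barcodes. Slc46a3, a lysosomal carrier, stood at 12.5 CPM in endothelial barcodes against 1 UMI in intermediate ones (log2 ratio 3.47, 1.49 to 9.38). Others were level between these classes, such as the vitamin C carrier Slc23a2 at 24.2 and 28.2 CPM and the riboflavin carrier Slc52a2 at 10.5 and 13.7 CPM.

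Slc9a3r2 encodes NHERF2, a scaffold for carriers and channels rather than a carrier, and was kept because the rule reads symbols. It stood at 423 CPM in endothelial and 9.89 in intermediate barcodes of the Tie2-GFP library, and at 746, 150.4 and 16.3 CPM in endothelial, mural and intermediate barcodes of the NG2-DsRed library. Its paralog Slc9a3r1 (NHERF1) stood at 19.5 and 21.3 CPM, and at 61.3, 184 and 53.1 CPM, highest in mural cells.

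A list of 24 carriers known from ECs of the blood-brain barrier held 18 members. Their levels summed to 5539 CPM in endothelial and 788 CPM in intermediate barcodes of the Tie2-GFP library, and to 4280, 653 and 1078 CPM in endothelial, mural and intermediate barcodes of the NG2-DsRed library. Of the 17 with enough UMIs, 11 were at least 4-fold higher in endothelial barcodes and 1 (Slc27a1) in intermediate barcodes of the Tie2-GFP library. Over all genes tested, these shares were 15.1% and 8.09%. Against mural cells the count was 9 of 14 in ECs and 0 in mural cells, where all members gave 10 of 62 (16.1%, against 6.18% of all genes) in ECs and 4 of 62 (6.45%, against 4.31%) in mural cells. The equilibrative nucleoside carrier Slc29a1 and the choline carrier Slc44a1 stood at 39.0 and 80.4 CPM in ECs of the Tie2-GFP library. In mural cells of the NG2-DsRed library they stood at 126 and 120.4 CPM, so these values are from different libraries. Well-known carriers of brain capillaries stayed under the limit of 50 UMIs over both libraries, namely the lactate carrier Slc16a1 with 24, the amino acid carriers Slc38a3 with 25, Slc1a4 with 24 and Slc1a1 with 18, the organic anion carrier Slc22a8 with 11 and the vitamin carrier Slc5a6 with 44. The list was written with results of these data known and holds 9 of the 10 endothelial-led members, so its direction is not independent evidence.

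**Figure D2:**
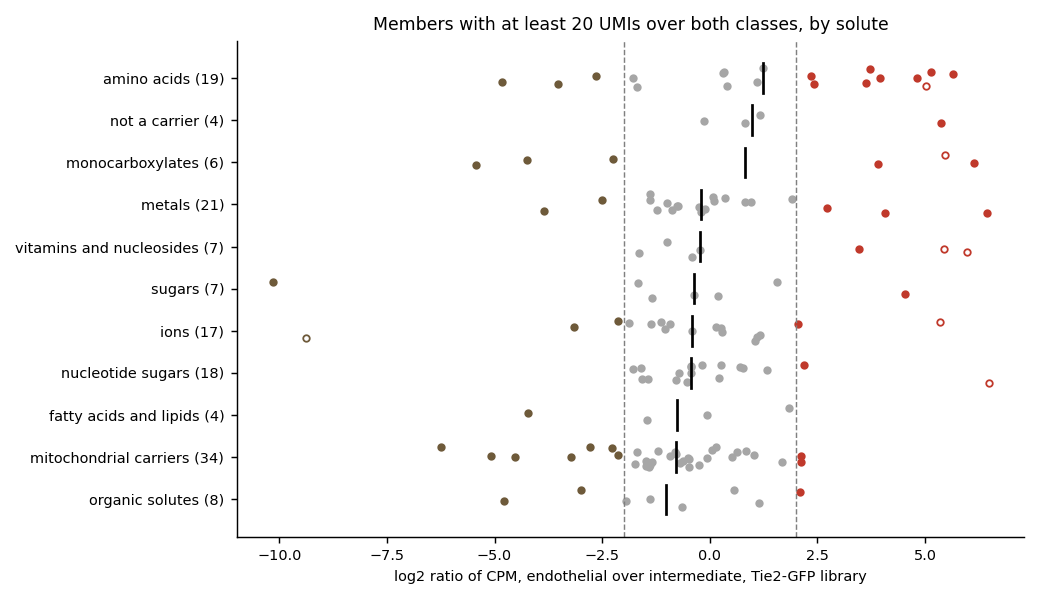
Log2 ratio of CPM of endothelial over intermediate barcodes in the Tie2-GFP library for the 145 members with enough UMIs, 1 point per gene, grouped by what the family carries (number of genes in brackets, families assigned whole). Bars are group medians, dashed lines mark 4-fold, red and brown points lie past them, and open points have 0 UMIs in 1 class, so their place depends on the 0.5 counts added. The median of amino acid carriers is the highest at 1.24, and that of mitochondrial carriers lies at -0.79.

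Carriers of intermediate cells were led by Slc45a2. This gene (chr15:11000721-11029233, plus strand), whose loss causes a form of albinism, stood at 1493 CPM (1428 to 1561) in intermediate and 1.16 CPM (0.317 to 2.98, 4 UMIs) in endothelial barcodes of the Tie2-GFP library. In the NG2-DsRed library it stood at 1551 CPM (1399 to 1715) in intermediate and 5.26 CPM in endothelial barcodes, with 0 UMIs in mural ones. Both libraries thus gave nearly the same intermediate level, at least 172-fold above mural barcodes, and a log2 ratio of endothelial over intermediate of -10.15 (-12.20 to -8.97) in the Tie2-GFP library. It was found in 92.6% (84.6 to 97.2) of intermediate and 0.296% (0.00749 to 1.64) of endothelial barcodes of the Tie2-GFP library thinned to 3506 UMIs, and in 95.4% and 1.06% unthinned.

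The other pigment gene among the members did not share this pattern. Slc24a5, the melanosomal potassium-dependent sodium-calcium exchanger, stood at 37.3 CPM (31.1 to 44.3) in endothelial and 49.5 CPM (38.2 to 63.0) in intermediate barcodes of the Tie2-GFP library, and at 61.3, 72.2 and 69.4 CPM in endothelial, mural and intermediate barcodes of the NG2-DsRed library. All intervals between classes of a library overlapped, with a log2 ratio of endothelial over intermediate of -0.41 (-0.85 to 0.05). The annotated gene (chr2:125068124-125088677, plus strand) overlaps Myef2 on the other strand, whose own UMIs came to 55.9 and 31.2 CPM in endothelial and intermediate barcodes of the Tie2-GFP library and 85.8, 90.3 and 44.9 CPM in endothelial, mural and intermediate barcodes of the NG2-DsRed library. How strand was used in counting is not given in the sources used here, and the part of Myef2 in these counts was not tested. Of the other pigment carriers listed, Slc7a11 held 11 and Slc24a4 0 UMIs.

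The remaining 6 intermediate-led genes carry unlike solutes. Slc24a2, a paralog of Slc24a5 known from neurons, stood at 96.6 CPM (80.6 to 115) in intermediate barcodes of the Tie2-GFP library with 0 UMIs in endothelial ones, at least 111-fold higher. In the NG2-DsRed library it stood at 143 CPM (99.5 to 199), with 1 UMI in endothelial and 0 in mural barcodes. Slc27a1 (FATP1, fatty acids) stood at 111 and 139 CPM in intermediate barcodes of the 2 libraries, and at no more than 5.82 CPM in the other classes. Slc22a17, a receptor for the iron-binding lipocalin 2, stood at 186 and 106 CPM in intermediate barcodes and at most 15.0 CPM in the other classes. Slc48a1 (HRG1), which moves heme out of lysosomes, stood at 192 and 371 CPM against at most 47.3 CPM. Slc15a4, a lysosomal carrier of histidine and peptides, stood at 123 and 179.6 CPM against at most 24.1, and Slc38a10 at 233 and 216 CPM against at most 38.5. In all 6 the intermediate values of both libraries lay above every value of the other classes. Outside the classes, barcodes of the Tie2-GFP library with at least 3 markers of marginal cells (closing section) also held most of these genes. Slc22a17 stood there at 91.6 CPM, Slc38a10 at 89.0, Slc48a1 at 78.5, Slc27a1 at 62.8 and Slc15a4 at 44.5, with 0 UMIs of Slc24a2. Within the study's limits, which keep 6 and 7 intermediate barcodes of the Tie2-GFP and NG2-DsRed libraries, 3 of the 7 still led (Slc45a2, Slc15a4 and Slc48a1) and the other 4 fell under 20 UMIs.

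Against mural cells, 9 of the 48 members with enough UMIs were at least 4-fold higher in intermediate cells (18.8%, against 6.72% of all genes) and 4 in mural cells (8.33%, against 12.6%). The 9 were the 7 led by intermediate cells, Slc7a5 and the Slc35 family member Slc35e4 (15.0 against 81.6 CPM). The 4 were the 3 led by mural cells, described next, and Slc9a3r2.

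Mural cells had 3 leading SLC genes. Slc38a11 (chr2:65316430-65364034, minus strand) stood at 334 CPM (275 to 402, 111 UMIs in 58 of 97 barcodes) in mural and 42.0 CPM (26.9 to 62.6) in endothelial barcodes of the NG2-DsRed library, with 0 UMIs in intermediate barcodes. In the Tie2-GFP library it stood at 2.33 CPM in endothelial barcodes, with 0 UMIs in intermediate ones. The endothelial level was higher in the library whose endothelial barcodes also carried more mural marker RNA, and the part of mural RNA in it was not tested. Slc38a11 had a log2 ratio of mural over endothelial of 2.97 (2.34 to 3.69) within the NG2-DsRed library, and of 4.78 with stricter classes. It was at least 27.3-fold above intermediate barcodes. Thinned to 1935 UMIs, 36.2% (25.8 to 47.8) of 80 mural and 6.90% (1.91 to 16.7) of 58 endothelial barcodes held it, with 17 shallower mural barcodes left out, and 0 of 22 intermediate barcodes, which allows a share of up to 13.6%. Unthinned, the shares were 59.8%, 24.1% and 0%.

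Slc19a1, the reduced folate carrier, stood at 181 CPM (138 to 232) in mural, 29.8 CPM (17.3 to 47.7) in endothelial and 16.3 CPM (4.45 to 41.8) in intermediate barcodes of the NG2-DsRed library, and at 1.46 and 3.80 CPM in endothelial and intermediate barcodes of the Tie2-GFP library. Mural cells were above every other value, with log2 ratios of 2.57 (1.80 to 3.47) over endothelial and 3.31 (2.04 to 5.39) over intermediate barcodes of that library, the former 3.80 with stricter classes. The gene (chr10:77032241-77061002, plus strand) overlaps the collagen gene Col18a1 on the other strand. Col18a1 stood at 21.1 CPM in mural and 8.76 CPM in endothelial barcodes of the NG2-DsRed library, with 0 UMIs in intermediate ones. In the Tie2-GFP library it stood at 39.0 CPM in endothelial and 1.52 CPM in intermediate barcodes. The part of Col18a1 in the counts of Slc19a1 was not tested. Slc12a4 (KCC1, potassium-chloride cotransport) stood at 105 CPM (73.4 to 146) in mural barcodes, and at 22.8 and 16.3 CPM in endothelial and intermediate barcodes of the NG2-DsRed library, against 21.5 and 41.1 CPM in the Tie2-GFP library. Set against intermediate cells of the Tie2-GFP library, it was no longer 4-fold higher in mural cells. The choline carrier Slc44a2 was also at least 4-fold higher in mural than in endothelial barcodes, at 99.3 against 21.0 CPM, but not against intermediate ones (40.8 CPM).

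Mitochondrial carriers (Slc25, 34 members) were led by no class. Their levels summed to 1495 CPM in endothelial and 3386 CPM in intermediate barcodes of the Tie2-GFP library, and to 1577, 2215 and 3666 CPM in endothelial, mural and intermediate barcodes of the NG2-DsRed library. Both libraries thus put intermediate cells highest of the classes compared. All 34 had enough UMIs in the Tie2-GFP library, where 2 were at least 4-fold higher in endothelial and 7 in intermediate barcodes, with a median log2 ratio of -0.79, against 15.1%, 8.09% and a median of 0.16 over all genes. These values stand beside the mitochondrial shares given above, 9.31% in intermediate and 1.82% in endothelial barcodes of that library.

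Most of the mitochondrial sum came from 3 genes. Slc25a4 (ANT1) stood at 262 and 1259 CPM in endothelial and intermediate barcodes of the Tie2-GFP library, and at 382, 713 and 1351 CPM in endothelial, mural and intermediate barcodes of the NG2-DsRed library. Slc25a5 (ANT2) stood at 281 and 483 CPM, and at 199.7, 340.0 and 588 CPM. ANT1 exceeded ANT2 in intermediate and mural cells and in ECs of the NG2-DsRed library, and the pair was nearly level in ECs of the Tie2-GFP library. Slc25a3 stood at 353 and 618 CPM, and at 448, 469 and 763 CPM, within a narrower range. Barcodes of no class of the Tie2-GFP library with at least 3 markers of marginal cells (closing section) also held these genes. Slc25a3 stood there at 1094 CPM, above the intermediate level of that library. Slc25a5 was level with it at 484 CPM, and Slc25a4 was below it at 1060 CPM. Of the aspartate-glutamate carriers, Slc25a13 (citrin) stood at 34.2 and 0.874 CPM in intermediate and endothelial barcodes of the Tie2-GFP library and Slc25a12 (aralar) at 52.5 and 16.3. Slc25a34, Slc25a35 and the coenzyme A carrier Slc25a42 were also on the intermediate side, at 32.7, 50.2 and 63.2 CPM against 0.291, 2.04 and 6.70. On the endothelial side, Slc25a30 held 163 UMIs (47.5 CPM) in ECs of the Tie2-GFP library and 0 in every class of the NG2-DsRed library, where a count of 0 allows up to 5.26 CPM in ECs, and Slc25a32 stood at 28.0 against 6.09 CPM.

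The Slc35 family (18 members) holds nucleotide sugar carriers, which feed the Golgi. It was assigned whole, so not every member need carry these solutes. The members summed to nearly equal levels of 390 and 403 CPM in endothelial and intermediate barcodes of the Tie2-GFP library. In endothelial, mural and intermediate barcodes of the NG2-DsRed library they summed to 368, 415 and 478 CPM. None led a class. The 2 at least 4-fold higher in ECs of the Tie2-GFP library were Slc35f2, at 33.8 CPM with 0 UMIs in intermediate barcodes (at least 14.8-fold), and Slc35d2, at 11.9 against 2.28 CPM. In the NG2-DsRed library all 14 UMIs of Slc35f2 were in endothelial barcodes.

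Ion carriers (19 members) summed to 395 and 541 CPM in endothelial and intermediate barcodes of the Tie2-GFP library, and to 326, 557 and 633 CPM in endothelial, mural and intermediate barcodes of the NG2-DsRed library. Of 12 ion and vitamin carriers known from inner ear function or deafness, 6 were members, and Slc52a3 was the 1 of these at least 4-fold higher in ECs. Slc12a7 (KCC4), a potassium-chloride cotransporter, stood at 53.0 CPM in endothelial and 24.4 CPM in intermediate barcodes of the Tie2-GFP library, and at 138 CPM in its barcodes of no class. The bicarbonate carrier Slc4a7 stood at 35.2 and 16.7 CPM. The pendrin gene Slc26a4 with 3 UMIs, Slc26a5 with 0, Slc17a8 with 2, Slc4a11 with 4, Slc8a1 with 10 and the thiamine carrier Slc19a2 with 35 stayed under the limit, and Slc22a4 was found mainly in barcodes of no class (closing section).

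**Figure D3:**
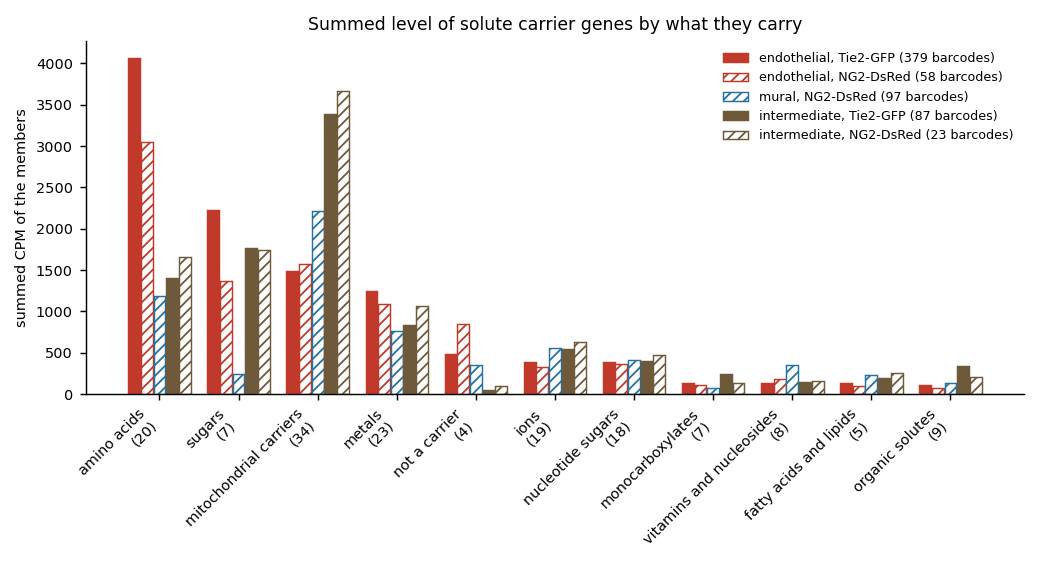
Summed CPM of the members by what their family carries (bars from 0, number of members in brackets, filled for the Tie2-GFP and hatched for the NG2-DsRed library), with no replicate and so no error bars. Amino acid carriers are highest in ECs (4071 and 3053 CPM), mitochondrial carriers in intermediate barcodes (3386 and 3666 CPM), and the sugar group of intermediate barcodes is mostly Slc45a2.

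The endothelial and intermediate sides could be compared in both libraries for 56 members with at least 20 UMIs over both classes in each. Of these, 47 had the same direction and 9 the opposite one, and 15 were past 4-fold in both, 0 of them in opposite directions. Over all 6001 genes with as many UMIs, 79.9% had the same direction and 15.8% were past 4-fold in both in 1 direction, beside 83.9% and 26.8% of the members. Of the 27 members higher in ECs of the Tie2-GFP library, 10 had enough UMIs in the NG2-DsRed library, all 10 in the same direction and 8 past 4-fold, beside 98.3% and 74.2% of all such genes. Of the 22 higher in intermediate cells, 10 had enough UMIs, all 10 in the same direction and 7 past 4-fold, beside 96.8% and 67% of all such genes. Agreement between the libraries was thus near that of genes at large.

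**Figure D4:**
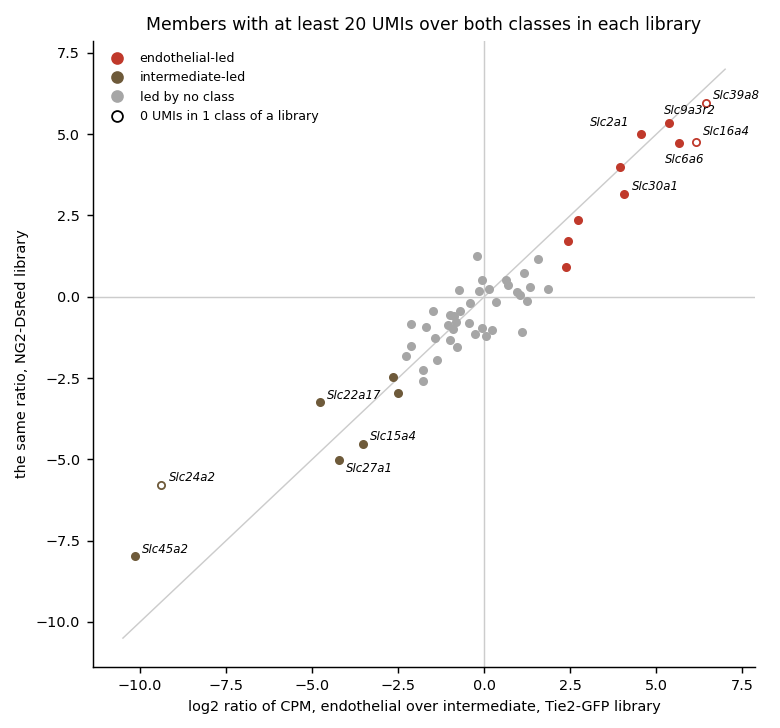
Log2 ratio of CPM of endothelial over intermediate barcodes in the Tie2-GFP library (x axis) and the NG2-DsRed library (y axis) for the 56 members with enough UMIs in both, colored by leading class, with a grey line of equality. The class-led genes lie in the lower left and upper right, and Slc3a2 and Slc7a5 are the endothelial-led genes nearest to 0 in the NG2-DsRed library (0.93 and 1.72).

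Some SLC genes differed in level between ECs marked arterial and ECs marked venous. Within the Tie2-GFP library, 155 endothelial barcodes were marked arterial (at least 2 of 7 arterial genes such as Gja4, Gja5 and Bmx, and fewer venous ones) and 79 venous (at least 2 of 7 venous genes such as Nr2f2, Selp and Ackr1, and fewer arterial ones), with median depths of 8272 and 9551 UMIs. A 2-fold difference was used here. Of 113 members with enough UMIs, 7 were higher in arterial-marked barcodes (6.19%, against 4.32% of all genes) and 5 in venous-marked ones (4.42%, against 1.93%). The largest differences with UMIs on both sides were those of Slc6a6 and Slc38a5.

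Slc6a6 stood at 1027 CPM (977 to 1079) in arterial-marked and 73.7 CPM (56.2 to 94.8) in venous-marked barcodes, with 372 CPM in the 145 ECs of neither kind. Its log2 ratio of arterial over venous was 3.79 (3.43 to 4.20). Slc38a5 ran the other way at 9.67 CPM (5.41 to 15.9) and 89.6 CPM (70.3 to 113), with 45.9 CPM in ECs of neither kind and a log2 ratio of -3.18 (-4.12 to -2.40). In both genes the ECs of neither kind lay between the marked ones. Slc26a10 held 37 UMIs in arterial-marked and 0 in venous-marked barcodes. The remaining differences rested on 21 to 86 UMIs, among them Slc6a8 (20.0 against 7.37 CPM) on the arterial and the iron carrier Slc11a2 (6.45 against 23.3 CPM), Slc12a9 (7.09 against 23.3 CPM), Slc15a4 (6.45 against 16.0 CPM) and the UDP-galactose carrier Slc35a2 (25.8 against 56.5 CPM) on the venous side. Also on the arterial side were Slc25a24 (41.3 against 19.6 CPM), Slc1a5, Slc39a6 and Slc45a4, and the intervals of the last 3 log2 ratios reached below 0.

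In endothelial barcodes of the NG2-DsRed library, added after the data were seen, 30 were arterial-marked and 8 venous-marked. Slc6a6 stood at 1088 and 602 CPM, a log2 ratio of 0.84 (0.47 to 1.25), the same direction but smaller. Slc6a8 ran against its arterial side in the Tie2-GFP library, at 9.27 and 53.9 CPM (3 and 6 UMIs), a log2 ratio of -2.43 (-5.17 to -0.31). Slc38a5 held 6 UMIs (18.5 CPM) in arterial-marked and 0 in venous-marked barcodes. Its venous side in the Tie2-GFP library was not seen here. The log2 ratio was 2.16, with a lower limit of -1.30. Both Slc6a8 and Slc38a5 held under 20 UMIs here. Slc1a5, Slc39a6, Slc45a4 and Slc35a2 also ran against their side in the Tie2-GFP library. Slc25a24, Slc26a10, Slc11a2, Slc12a9 and Slc15a4 had the same direction in both libraries. Each of these genes also held under 20 UMIs here, and no interval of their log2 ratios excluded 0. The venous gene Nr2f2 stood at 186 CPM in endothelial and 698 CPM in mural barcodes of this library. In endothelial barcodes of the Tie2-GFP library it stood at 75.4 CPM. The part of mural RNA in the venous marking was not tested.

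**Figure D5:**
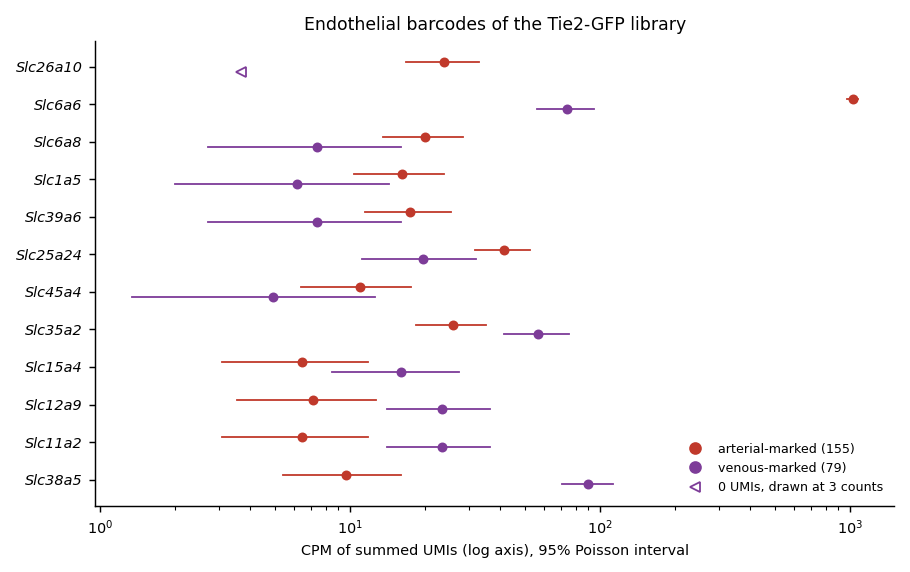
CPM (log axis) with 95% Poisson intervals of the 12 members past 2-fold between 155 arterial-marked and 79 venous-marked endothelial barcodes of the Tie2-GFP library, with an open triangle at 3 counts where a group held 0 UMIs. Slc6a6 (1027 against 73.7 CPM) and Slc38a5 (9.67 against 89.6 CPM) have intervals far apart, and most others lie under 50 CPM.

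Within mural cells, fewer members could be compared. Of the 97 mural barcodes, 40 were contractile (at least 2 of Acta2, Tagln and Myh11) and 51 carried Kcnj8 or Abcc9 with at most 1 of these, with median depths of 3749 and 2679 UMIs. Of 20 members with enough UMIs, 1 was at least 2-fold higher in contractile barcodes (5%, against 8.44% of all genes) and 2 in the others (10%, against 10.7%), so the shares were near those of all genes. Slc25a3 stood at 613 CPM (502 to 740) in contractile and 285 CPM (205 to 387) in the other barcodes. Slc44a2 stood at 51.0 CPM (23.3 to 96.9) and 167 CPM (107 to 248), and the pyrimidine nucleotide carrier Slc25a36 at 39.7 CPM (16.0 to 81.8) and 90.4 CPM (48.1 to 155), with overlapping intervals.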

How the data were processed

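The values are UMI counts of each gene in each barcode, as the authors deposited them, with no normalization. The matrix of the Tie2-GFP library was written by Cell Ranger 7.0.0 and that of the NG2-DsRed library by a software of version 3.0.0, per the file headers, and the submitters' processing notes name bcl2fastq 2.20.0.422 and the build mm10. Whether intronic reads were counted is not given in the sources used here. Tables were joined by Ensembl identifier (27040 shared), and all 154 members were listed in both. UMIs were summed per class in Python 3.11.15 (numpy 2.4.6, scipy 1.17.1, pandas 2.3.3; figures in matplotlib 3.10.9), and ratios had 0.5 counts added to each class. All deposited barcodes entered, without the study's limits, which are an alternative. No doublet caller was run. Steps were tested on simulated data. Gene positions are those of GENCODE M21 on GRCm38, where 25 members overlap a coding gene on the other strand and 4 on the same strand.

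The members, lists, classes and motifs were chosen with earlier results of these data known. Named genes are up to 10 class-led members per class, the 5 of highest CPM per class, up to 5 per direction within classes, and members of the lists, with others named after their values were seen. Alternatives were the study's limits, stricter classes, barcodes of both rules kept, CPM without mitochondrial and ribosomal genes or over shared genes, the mean of barcodes, 2-fold, no minimum of UMIs, the other library, and wider rules within classes. Arterial and venous ECs of the NG2-DsRed library were added after seeing the data. Values of some listed genes are not reported here.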

Additional observations from a re-analysis of the deposited data

Results flagged for a closer look

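The results below were marked because a signal lay in barcodes of no class, outside the comparisons, at least 4-fold above the endothelial and intermediate classes of the Tie2-GFP library and the mural class of the NG2-DsRed library. The 163 such barcodes of the Tie2-GFP library held 671649 UMIs (median 1533 per barcode, median mitochondrial share 75.6%). Of these barcodes 35 had UMIs in at least 3 of 6 markers of marginal cells, the secretory epithelium of the SV.

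Of the members, 5 were found mainly there. Slc44a3, of the choline carrier family, stood at 194 CPM (95% Poisson interval 162 to 230), with 121 of 130 UMIs in the barcodes with marginal markers. Slc41a3 (magnesium) stood at 131 CPM (105 to 161), with 86 of 88 UMIs in them. Slc22a4, a carrier of ergothioneine, stood at 87.8 CPM (66.9 to 113), with 58 of 59 UMIs in them. Slc41a2 (magnesium) stood at 86.4 CPM (65.6 to 112), with 50 of 58 UMIs in them. The highest level of these 4 in the endothelial, mural and intermediate classes compared was 21.1 CPM, of Slc41a3 in mural barcodes.

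The anion carrier Slc26a7 stood at 168 CPM (139 to 202), and all 113 UMIs were in 2 barcodes with 74 and 39 of them, at depths of 25654 and 10376 UMIs, neither with 3 marginal markers. It held 0 UMIs in every class of both libraries. The same barcodes held 194 and 56 UMIs of Vmo1 and 360 and 173 of Crhbp, genes looked at after the barcodes were seen. They also held 54 and 18 UMIs of Lrp2, which is among the marginal markers. The 21 barcodes of no class in the NG2-DsRed library held 0 UMIs of all 5.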

How the results depend on the processing

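No paired analysis was possible because each line has 1 library and the labels carry no replicate numbers.
Counts of members past a fold moved by over 1.5 times as follows, and 63 other counts did not. Under the study's limits on barcodes, which left 6 and 7 intermediate barcodes, members higher in intermediate than in mural cells fell to 3 (from 9) and intermediate-led ones to 3 (from 7): Slc22a17, Slc24a2, Slc27a1 and Slc38a10 fell under 20 UMIs. At 2-fold, intermediate over endothelial rose to 49, mural over endothelial to 10, mural over intermediate to 10, intermediate over mural to 15, mural-led to 6 and intermediate-led to 12. With no minimum of UMIs, mural over endothelial was 12, endothelial over mural 24, mural over intermediate 10, intermediate over mural 22, and 19, 6 and 14 members led endothelial, mural and intermediate cells. From the other library, endothelial over intermediate was 9, intermediate over endothelial 9, mural over endothelial 14, endothelial over mural 25 and intermediate over mural 19. With ECs and intermediate cells of the Tie2-GFP library throughout, 20 members were endothelial-led and 15 intermediate-led, Slc9a3r2 and Slc12a4 were lost and Slc9a3r1 became mural-led. Stricter classes, which left at most 16 ECs in the NG2-DsRed library, lost the endothelial-led Slc16a4, Slc39a10 and Slc39a8, which left 7 endothelial-led, 3 mural-led and 7 intermediate-led members. Under the study's limits these counts were 10, 3 and 3. No class-led gene changed direction under any alternative, and 29 of 361 alternative values of their log2 ratios and of the within-class genes lay outside the main interval.
Depth limits mural cells most, where 42 members could be placed. RNA freed from other cells was not modelled.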
